A study of Homo sapiens with 4 samples.

Results

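The cancer-testis antigen families were examined in RNA-seq libraries of BICR10 cells with and without knockdown of YEATS2. The members were chosen by gene symbol: the MAGEA, MAGEB, MAGEC, PAGE, XAGE, GAGE, SSX, CTAG, CT45A and CT83 families, together with PRAME, SAGE1, DDX53, ACTL8, PIWIL1, TKTL1, MAEL, SYCP1 and BRDT. The symbols matched 86 genes, of which 5 pseudogenes (SSX6P, SSX8P, SSX9P, CT45A11P and MAGEA5) were left out. SSX2IP carries the SSX prefix but encodes a protein that binds an SSX protein and is not of that family, so it was set apart. BAGE, also named by the rule, had no row in the counts. This left 80 members among 60623 genes, all of them protein-coding, with 74 on chromosome X and 6 elsewhere. The families were selected on measured values in the sense that changes of some of their genes in this comparison were already known when they were chosen. The changes of the members are therefore given as a description, without p-values, and nothing is read from how many of them changed.

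BICR10 is an established line from a head and neck cancer, and the study asked which genes respond when YEATS2, a histone reader, is silenced. A total of 4 libraries were compared, 2 from cells carrying a control hairpin (shControl) and 2 from cells carrying a hairpin against YEATS2 (shYEATS2), both delivered by lentivirus and selected with puromycin. RNA came from whole cultures of this 1 line, libraries were stranded and enriched for mRNA, and both ends of each fragment were read. The labels do not say which YEATS2 hairpin a library carried, nor whether libraries of a group came from separate cultures, so the spread between them may be technical.

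Cancer-testis antigens are proteins whose genes are normally active in germ cells of the testis and largely silent in other adult tissues, where methylation of CpG sites at their promoters helps to keep them off. Many tumors express some of them, and because testicular germ cells do not present peptides on HLA class I, these proteins have been pursued as targets for vaccines and T cells. Most of the families lie on chromosome X in clusters of closely related copies. MAGE proteins bind RING-type ubiquitin ligases, and the MAGEA, MAGEB and MAGEC genes (type I) show the testis-restricted pattern, whereas the type II MAGE genes are expressed in many tissues.

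Depth was 47297970 and 39824898 counts on genes in shControl 1 and 2, against 24072396 and 11334133 in shYEATS2 1 and 2, so depth and knockdown cannot be told apart by design. Levels are given in CPM, counts scaled to library size with TMM, which sets the libraries to a common level over most genes. YEATS2 stood at 66.1 and 66.7 CPM in shControl and 29.3 and 29.1 CPM in shYEATS2, which is 43.95% of the control level. A gene was called changed at an adjusted p under 0.05 in edgeR's quasi-likelihood test over 17058 genes, and 46.2% of these were called, 22.6% higher and 23.6% lower in shYEATS2. These were 3857 higher and 4019 lower genes, and scaling by library totals alone made them 5441 and 2567. Markers of squamous epithelial cells, 12 genes, summed to 370 to 386 CPM in shControl and 316 to 332 CPM in shYEATS2, none at 0 throughout, but this sum was mostly SFN, PERP and LAMB3. Of the 10 tested, 2 were higher and 5 lower, with a median log2 fold change of −0.53. KRT6A went from a mean of 56.6 to 1.79 CPM and KRT5 from 15.7 to 1.19 CPM, while CDH1 went from 0.335 to 2.48 CPM, and TP63 was at most 0.255 CPM in any library. Markers of fibroblasts, 8 genes, summed to 6185 to 6260 CPM in shControl and 1996 to 2121 CPM in shYEATS2, and 6 of the 7 tested were lower. The part of these shifts in the members' values was not tested. Of the 10 markers of germ and Sertoli cells, the germ cell genes DAZL, TNP1, TNP2, PRM1 and PRM2 were at 0 in all 4 libraries, and DDX4 and ACR each had counts in 1 library only. The Sertoli markers SOX9 and AMH, which other cells also express, stood at 14.7 to 17.1 CPM and 7.81 to 9.32 CPM, and brought the list's sum to between 22.8 and 25.9 CPM in every library. The 3 tested genes of this list were not called. In RNA from bulk cultures, fewer cells that express a gene and less of its RNA per cell cannot be told apart.

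The 4 libraries expressed a small part of the families. Of the 80 members, 34 had no count in any library, 30 had some counts but too few for a test, and 16 were tested, against 12928 of the 19886 protein-coding genes of the files (65.01%). A mean of at least 1 CPM in either group was reached by 12 members, in shControl by 7 and in shYEATS2 by 10, and a mean of at least 10 CPM by 5: MAGEA3, MAGEA6, PRAME, MAGEC2 and MAGEA12. The members with counts were spread unevenly over the families, as the plot of detection by family shows. MAGEA was the family with most tested genes, 6 of 12, followed by MAGEC with 2 of 3 and PAGE with 2 of 6. CTAG had 1 tested gene of 3, MAGEB 1 of 11, SSX 1 of 8 and XAGE 1 of 5, while none of the 9 CT45A genes, none of the 13 GAGE genes and not CT83 reached the test.

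**Figure D1:**
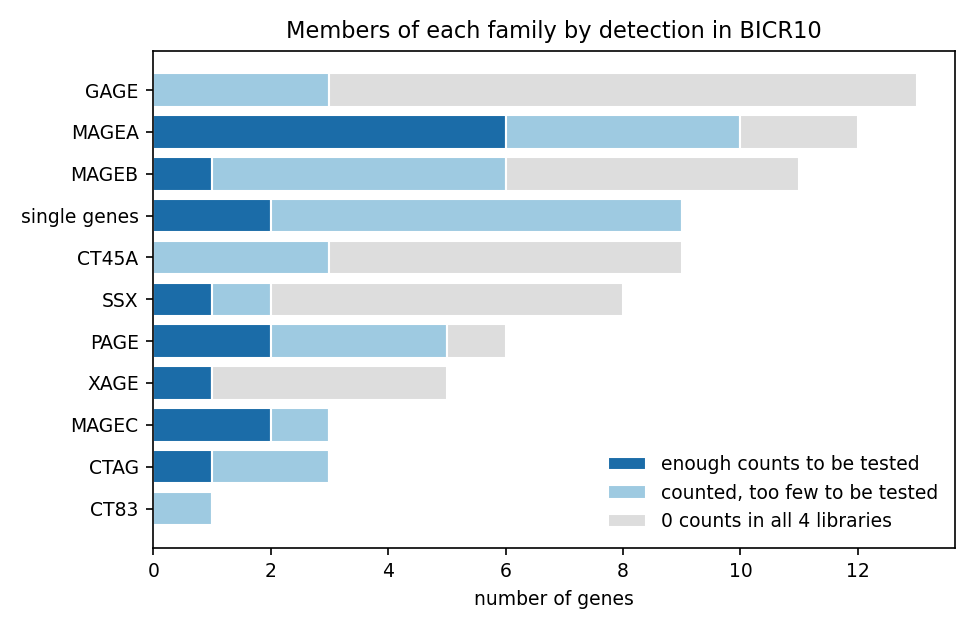
Number of members of each family (bars, in genes) that were at 0 in all 4 libraries, that had counts but were not tested, or that were tested. MAGEA holds 6 of the 16 tested members, whereas the CT45A and GAGE families hold none.

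The absent and near-absent members carry a limit. A count of 0 allows up to 0.0634, 0.0753, 0.125 and 0.265 CPM in shControl 1, shControl 2, shYEATS2 1 and shYEATS2 2, taking 3 counts of each library total and counting error alone. Close copies are a further limit, because read pairs that fit several genes are tallied apart by the counting and belong to no gene. In 28 of the 80 members more than 50% of the 150-base windows of the transcript also occur in another gene's transcript, and 27 of these 28 were not tested. The family median of this share was 94.2% for CT45A, 98.4% for CTAG, 81.8% for GAGE and 64.5% for SSX. A low count in these families is thus not a measure of how much of the family's RNA was present. The same holds for MAGEA2, MAGEA2B, XAGE1A and XAGE1B, with 100% of their windows shared. The tallies of pairs that mapped to several places were 3.25 to 3.53% of each library and overlapped between the groups.

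Among the members with counts below the test, the highest single count was 16, of ACTL8, an actin-like gene of the testis, which had 16, 5, 3 and 3 counts in shControl 1, shControl 2, shYEATS2 1 and shYEATS2 2. MAGEA4, a target of engineered T cells, had 5, 2, 8 and 3 counts in the same order. GAGE2A had 0, 3, 8 and 3 counts and MAGEC3 3, 7, 2 and 0. CTAG1A and CTAG1B, the copies that encode NY-ESO-1, each had 1 count in 1 shControl library and none elsewhere. CT45A10 led its family with 3, 3, 2 and 0 counts, MAGEB2 had 5 counts in shYEATS2 1 alone, SSX7 1 count in shYEATS2 2 alone and CT83 2 counts in shYEATS2 1 alone. The germline genes PIWIL1, BRDT, MAEL, DDX53, TKTL1 and SAGE1 had at most 8 counts in any library. No difference between the groups was detectable at this depth in such counts.

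At the other end, the level per kilobase of exon ordered the tested members with MAGEA3 and MAGEA6 on top, at 81.0 and 77.5 CPM per kb in shControl, a gap no larger than the spread between libraries, followed by PRAME at 17.8 CPM per kb. Then came MAGEA12 at 5.76, MAGEC2 at 3.71 and MAGEA1 at 1.17 CPM per kb, and the other 10 tested members lay under 1 CPM per kb. In shYEATS2 the order at the top was MAGEA3 at 66.5, MAGEA6 at 56.3, MAGEC2 at 30.7 and PRAME at 14.4 CPM per kb, so MAGEC2 stood above PRAME there. The plot of the tested members' levels gives all 4 libraries for each gene.

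**Figure D2:**
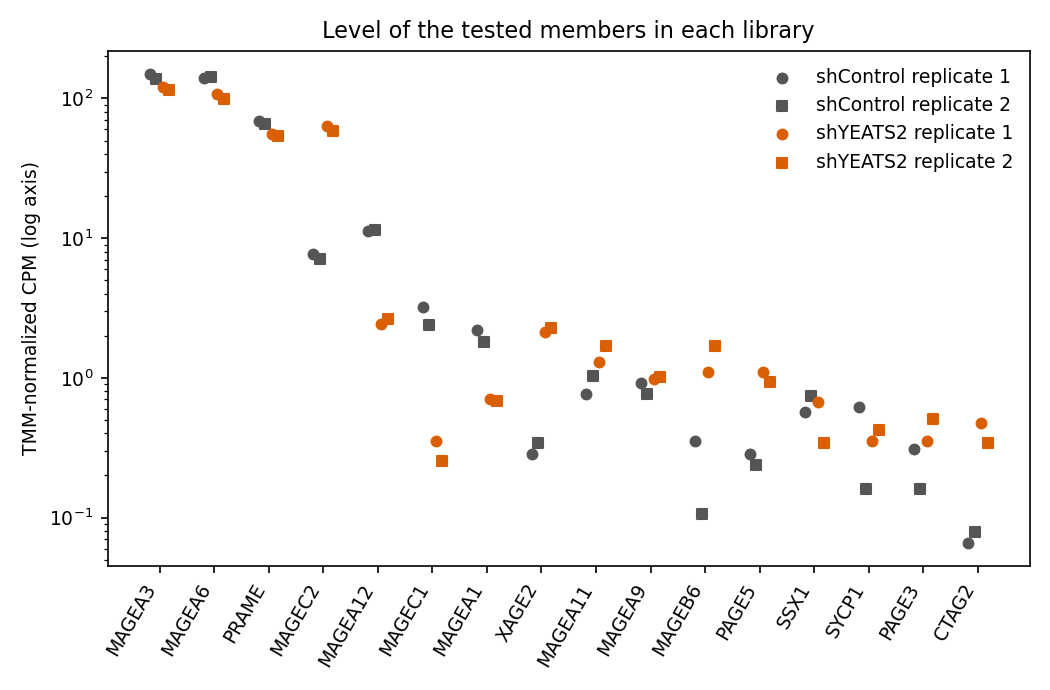
Level of each of the 16 tested members in the 4 libraries, in TMM-normalized CPM on a log axis, with each library a point and the groups in different colors. MAGEC2 and XAGE2 are well above their shControl values in both shYEATS2 libraries, MAGEC1 and MAGEA12 well below, and SSX1 and SYCP1 overlap between groups.

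Of the 16 tested members, 11 were called, 5 higher (MAGEC2, XAGE2, MAGEB6, CTAG2 and PAGE5) and 6 lower (MAGEC1, MAGEA12, MAGEA1, MAGEA6, PRAME and MAGEA3) in shYEATS2. Over all tested genes 46.2% were called, 22.6% higher and 23.6% lower. The remaining 5, PAGE3, MAGEA11, MAGEA9, SYCP1 and SSX1, were not called. With library totals alone the calls were 6 higher and 4 lower. Both shYEATS2 libraries lay above both shControl libraries in 8 members and below them in 6, where 35.3% and 36.3% of all tested genes did so. The call went with a change of 2-fold or more in 5 higher and 3 lower members, where 9.69% of all tested genes had one in either direction. The test was reached in both libraries of both groups by 9 of the 16 members, only through the shYEATS2 libraries by 6 (CTAG2, XAGE2, PAGE5, MAGEB6, SYCP1 and PAGE3) and only through shControl by MAGEC1, so these last 7 were tested on the strength of 1 group. Of the 5 higher members, 4 were under 3 CPM in every library.

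**Figure D3:**
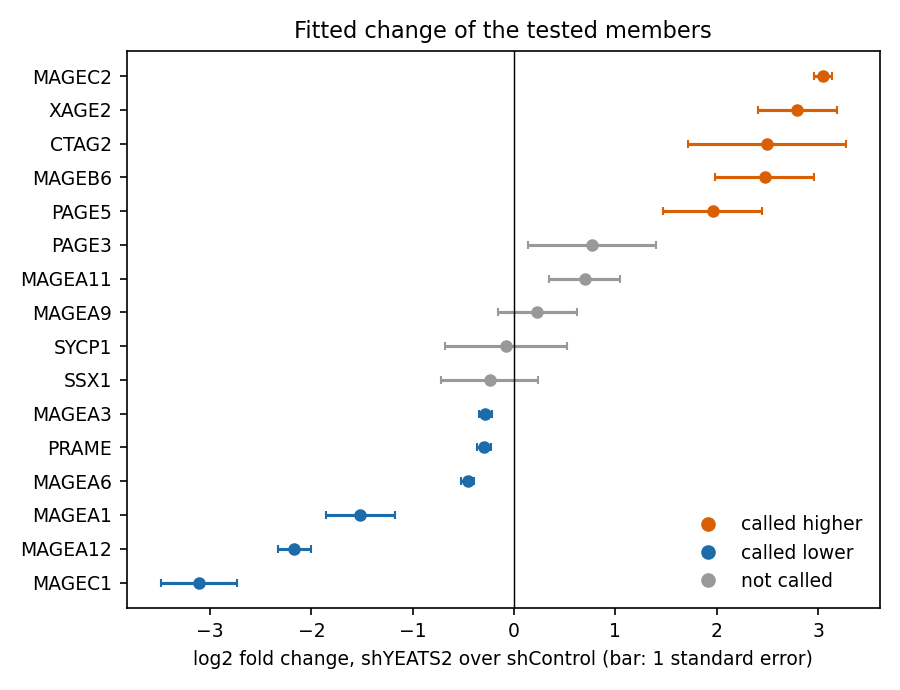
Log2 fold change of the 16 tested members, shYEATS2 over shControl, with bars of 1 standard error derived from the F of edgeR's test and called members marked. The values run from −3.11 for MAGEC1 to 3.05 for MAGEC2.

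The members of the MAGEC family moved furthest and in opposite directions. MAGEC2 encodes a MAGE protein that binds the ligase TRIM28, and MAGEC1 encodes a larger relative with a long repeat-rich region, known as an antigen in myeloma. The 250 bases before the RefSeq start of each gene are shown because these neighbors differ in response while their upstream sequences resemble each other, with 167 of 212 aligned bases identical (78.8%). Both are given 5′ to 3′ on the gene's own strand in GRCh38.p14, MAGEC2 from chrX:142205291-142205540 on the minus strand and MAGEC1 from chrX:141903644-141903893 on the plus strand, with CpG sites in capitals. MAGEC1 was added to the printed set after its values were seen.
MAGEC2: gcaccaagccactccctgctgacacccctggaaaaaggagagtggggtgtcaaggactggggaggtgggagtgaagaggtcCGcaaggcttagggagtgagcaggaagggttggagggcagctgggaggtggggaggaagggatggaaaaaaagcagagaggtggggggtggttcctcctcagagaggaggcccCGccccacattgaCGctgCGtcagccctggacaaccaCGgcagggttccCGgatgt
MAGEC1: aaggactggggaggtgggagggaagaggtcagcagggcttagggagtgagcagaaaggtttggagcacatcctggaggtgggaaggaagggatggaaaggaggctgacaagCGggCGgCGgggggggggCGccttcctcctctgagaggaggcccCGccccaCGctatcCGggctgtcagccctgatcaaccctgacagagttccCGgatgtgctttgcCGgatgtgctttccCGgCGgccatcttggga
The MAGEC2 sequence holds 6 CpG sites and the MAGEC1 sequence 11, or 6 and 8 over the stretch that aligns, the windows being offset.

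MAGEC2 (ENSG00000046774, chromosome X, 142202342 to 142205290, minus strand) had 349 and 269 counts in shControl 1 and 2 and 1608 and 693 counts in shYEATS2 1 and 2, although the shYEATS2 libraries were the shallower ones. On the CPM scale it stood at 7.69 and 7.12 in shControl and 63.5 and 58.8 in shYEATS2. The groups were far apart compared with the libraries within them, with means of 7.41 ± 0.407 and 61.1 ± 3.30 CPM (SD, n = 2 each). The log2 fold change was 3.05 (SE 0.09), or 827% of the control level, and it lay between 2.97 and 3.18 under every alternative tried.

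MAGEC1 (ENSG00000155495, chromosome X, 141903894 to 141909374, plus strand) had 146 and 90 counts in shControl and 9 and 3 in shYEATS2. These were 3.22 and 2.38 CPM against 0.355 and 0.255 CPM, and MAGEC1 reached the test only through the shControl libraries. The log2 fold change was −3.11 (SE 0.38), or 11.6% of the control level. MAGEC3, the third gene of the family, had 3 and 7 counts in shControl and 2 and 0 in shYEATS2. Within each library, where scaling between libraries plays no part, MAGEC2 had 2.39 and 2.99 counts for each count of MAGEC1 in shControl and 179 and 231 in shYEATS2. None of the 150-base windows of either transcript occurs in another gene's transcript.

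The end of MAGEC1 and the start of MAGEC2 on the chromosome are 293 kb apart. Within 500 kb of MAGEC2 the annotation places 9 genes, 3 of them protein-coding and all 3 of the MAGEC family, and MAGEC1 and MAGEC2 were the only genes of the 9 to be tested. A long noncoding gene on the plus strand, AL031073.2, spans MAGEC2 and had 4, 4, 0 and 0 counts, far below those of MAGEC2. SPANXD, a testis gene whose product belongs to the sperm nucleus-associated family, lies just outside this window at 504 kb and was picked after its values were seen. It stood at 40.1 and 37.2 CPM in shControl and 20.4 and 22.2 CPM in shYEATS2, with a log2 fold change of −0.88 (SE 0.09).

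The MAGEA genes supplied the bulk of the members' RNA, and the 4 called among them were all lower. At full depth with TMM scaling, edgeR called none higher, also at an unadjusted p under 0.05, and DESeq2 called none higher. MAGEA11 was called higher under other settings, given with its values. MAGEA3 and MAGEA6 encode nearly identical proteins that, with TRIM28, direct the ubiquitination of the AMPK catalytic subunit. They sit 71.0 kb apart from outer end to outer end, facing each other on opposite strands with MAGEA12 between them. Their upstream sequences are shown because those of MAGEA3 and MAGEA6 are identical over the 250 bases, while that of MAGEA12, the gene of the 3 that differed most between groups, matches at 157 of 177 aligned bases (88.7%). The MAGEA3 sequence comes from chrX:152698544-152698793 on the plus strand and again from chrX:152769690-152769939 on the minus strand for MAGEA6, and that of MAGEA12 from chrX:152733507-152733756 on the plus strand, with CpG sites in capitals. This set, too, was chosen after the values were seen.
MAGEA3 and MAGEA6: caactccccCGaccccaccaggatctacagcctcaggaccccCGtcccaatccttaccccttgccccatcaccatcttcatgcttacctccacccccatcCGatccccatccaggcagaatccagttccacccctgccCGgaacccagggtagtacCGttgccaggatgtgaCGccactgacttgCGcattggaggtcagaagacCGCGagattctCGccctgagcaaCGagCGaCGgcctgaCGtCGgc
MAGEA12: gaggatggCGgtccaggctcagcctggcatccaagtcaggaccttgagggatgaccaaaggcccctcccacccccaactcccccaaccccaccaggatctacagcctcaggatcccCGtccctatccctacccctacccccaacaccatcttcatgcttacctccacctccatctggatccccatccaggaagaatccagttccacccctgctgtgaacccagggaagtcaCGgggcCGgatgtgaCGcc
There are 15 CpG sites in the sequence of MAGEA3 and MAGEA6 and 5 in that of MAGEA12. The windows are offset, and the last 74 bases of the MAGEA3 and MAGEA6 sequence have no counterpart in that of MAGEA12. Over the aligned 176 bases the numbers are 6 and 4.

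MAGEA12 (ENSG00000213401, chromosome X, 152733757 to 152737669, plus strand) had 511 and 429 counts in shControl and 62 and 31 in shYEATS2. The levels were 11.3 and 11.4 CPM against 2.45 and 2.63 CPM, with no overlap and little spread inside either group. Its log2 fold change was −2.17 (SE 0.16), or 22.2% of the control level. As a share of the MAGEA3 counts in the same library, MAGEA12 stood at 7.54% and 8.24% in shControl and 2.02% and 2.30% in shYEATS2.

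MAGEA6 (ENSG00000197172, chromosome X, 152766136 to 152769716, minus strand) was at 141 and 144 CPM in shControl and 108 and 98.6 CPM in shYEATS2, and the groups did not overlap. The log2 fold change was −0.46 (SE 0.06). MAGEA3 (ENSG00000221867, chromosome X, 152698767 to 152702347, plus strand) was at 149 and 138 CPM in shControl and 121 and 114 CPM in shYEATS2, again without overlap. Its log2 fold change was −0.28 (SE 0.06), and its call was lost when library totals alone set the scale (−0.15) and when shControl 1 was left out (−0.23). The canonical transcripts of this pair were identical at 98.6% of aligned bases, and 461 of 1533 windows of 150 bases (30.1%) occur in both, so part of their reads could not be given to either gene. The counts of MAGEA3 for each count of MAGEA6 were 1.06 and 0.960 in shControl and 1.13 and 1.16 in shYEATS2, a shift close to the gap between the shControl libraries.

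MAGEA1 (ENSG00000198681, chromosome X, 153179284 to 153183880, plus strand), which encodes a T-cell target identified in melanoma, had 100 and 68 counts in shControl and 18 and 8 in shYEATS2. It was at 2.21 and 1.80 CPM against 0.711 and 0.679 CPM, with a log2 fold change of −1.52 (SE 0.34). MAGEA11 (ENSG00000185247, chromosome X, 149688228 to 149717268, plus strand), whose product binds the androgen receptor, was at 0.772 and 1.03 CPM in shControl and 1.30 and 1.70 CPM in shYEATS2. Its log2 fold change was 0.70 (SE 0.35) and it was not called, though both shYEATS2 libraries were above both shControl libraries. MAGEA11 was called when library totals alone set the scale (0.83) and when all libraries were thinned to the smallest total (1.45). MAGEA9 (ENSG00000123584, chromosome X, 149781930 to 149787737, plus strand) was at 0.926, 0.767, 0.987 and 1.02 CPM, shControl libraries named before shYEATS2, and was not called, and 86.8% of its windows are shared with its copy MAGEA9B.

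The stretch from MAGEA3 to MAGEA6 holds 10 genes, 8 of them protein-coding, and the 4 that were tested were all lower. The 1 among these that is not a member was CSAG1, a testis gene on the minus strand whose start lies 22 bases from that of MAGEA12, with transcription running away from it. CSAG1 had 622 and 483 counts in shControl and 93 and 39 in shYEATS2, or 13.7 and 12.8 CPM against 3.67 and 3.31 CPM. Its log2 fold change of −1.90 (SE 0.15) stood beside the −2.17 of MAGEA12 and apart from the −0.28 and −0.46 at the ends of the stretch. Of the others, MAGEA2 had 6, 5, 2 and 1 counts, MAGEA2B 7, 0, 0 and 0, CSAG2 2, 0, 0 and 0, and CSAG3 3, 3, 0 and 1. All 150-base windows of MAGEA2 and MAGEA2B occur in another gene's transcript, so their low counts do not measure their RNA. The map of both neighborhoods places these values by distance.

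**Figure D4:**
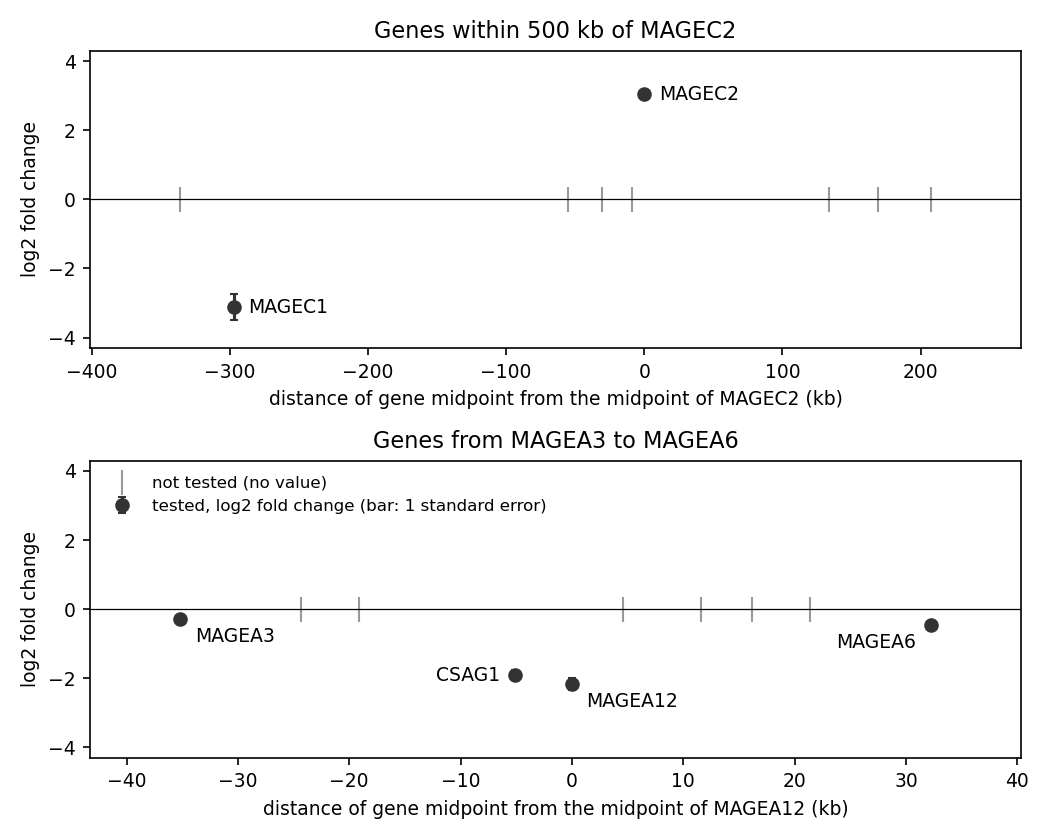
Log2 fold change, shYEATS2 over shControl, of tested genes against the distance of their midpoints in kb from MAGEC2 (top) and MAGEA12 (bottom), with bars of 1 standard error and ticks for genes that were not tested. MAGEC1 and MAGEC2 have opposite signs with 293 kb between them, and CSAG1 and MAGEA12 have similar values between the smaller ones of MAGEA3 and MAGEA6.

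PRAME (ENSG00000185686, chromosome 22, 22547701 to 22559361, minus strand) encodes a leucine-rich repeat protein known as a repressor of retinoic acid receptor signaling and is the only tested member off chromosome X other than SYCP1. It was at 69.5 and 65.7 CPM in shControl and 55.8 and 54.0 CPM in shYEATS2, so the groups did not overlap. Its log2 fold change was −0.30 (SE 0.07), and with library totals alone it was −0.16 and no longer called. SYCP1 (ENSG00000198765, chromosome 1, 114854863 to 114995370, plus strand), which builds the synaptonemal complex of meiosis, had 28 and 6 counts in shControl and 9 and 5 in shYEATS2. The SYCP1 groups overlapped, at 0.617 and 0.159 CPM against 0.355 and 0.424 CPM, and it was not called.

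XAGE2, PAGE5 and PAGE3 belong to the XAGE and PAGE branches of the GAGE-like genes, which encode small acidic proteins of uncertain function. The upstream sequence of XAGE2 is shown because its rise was the largest after that of MAGEC2 among members at 1 CPM or more. It comes from chrX:52368771-52369020 on the plus strand, with its 10 CpG sites in capitals.
XAGE2: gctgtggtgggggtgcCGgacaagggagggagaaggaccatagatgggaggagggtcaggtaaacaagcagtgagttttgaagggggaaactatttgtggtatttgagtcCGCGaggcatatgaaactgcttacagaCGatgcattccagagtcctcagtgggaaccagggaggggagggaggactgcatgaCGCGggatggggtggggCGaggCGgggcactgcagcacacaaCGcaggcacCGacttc
XAGE2 (ENSG00000155622, chromosome X, 52369021 to 52375680, plus strand) had 13 counts in each shControl library and 54 and 27 in shYEATS2, or 0.287 and 0.344 CPM against 2.13 and 2.29 CPM. XAGE2, too, reached the test only through the shYEATS2 libraries, so nothing is read from the gap between the groups. The log2 fold change was 2.79 (SE 0.39), with values of 2.65 to 3.45 under the alternatives. PAGE5 (ENSG00000158639, chromosome X, 55220346 to 55224108, plus strand) was at 0.287 and 0.238 CPM in shControl and 1.10 and 0.933 CPM in shYEATS2. Its log2 fold change was 1.96 (SE 0.49), and without shYEATS2 1 it was 1.79 and no longer called. PAGE5 dropped out of the test at 10 counts in every library and after thinning. PAGE3 (ENSG00000204279, chromosome X, 55258415 to 55264916, minus strand) was at 0.309 and 0.159 CPM against 0.355 and 0.509 CPM and was not called.

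MAGEB6 (ENSG00000176746, chromosome X, 26192440 to 26195646, plus strand) had 16 and 4 counts in shControl and 28 and 20 in shYEATS2. These were 0.353 and 0.106 CPM against 1.10 and 1.70 CPM, with a wide spread in shControl. MAGEB6 reached the test only through the shYEATS2 libraries, so nothing is read from the gap between the groups. The log2 fold change was 2.47 (SE 0.49), with values of 1.90 to 3.59 under the alternatives. The other 10 MAGEB genes had too few counts for a test, with at most 5 in any library.

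CTAG2 (ENSG00000126890, chromosome X, 154651972 to 154653579, minus strand), which encodes LAGE-1, a close relative of NY-ESO-1, had 3 counts in each shControl library and 12 and 4 in shYEATS2. Over both libraries of each group, 6 counts stood against 16, a ratio of 5.97 after scaling with an exact 95% interval of 2.22 to 18.6 for counting error. CTAG2 reached the test only through the shYEATS2 libraries. The interval leaves out this selection and the spread between libraries, so nothing is read from its distance from 1. The log2 fold change from the fit was 2.49 (SE 0.78), and CTAG2 was not called by DESeq2 (2.50) nor without shControl 1 (2.34) or shControl 2 (2.59). SSX1 (ENSG00000126752, chromosome X, 48255392 to 48267444, plus strand), a transcriptional repressor known from its fusion with SS18 in synovial sarcoma, was at 0.573 and 0.741 CPM in shControl and 0.671 and 0.339 CPM in shYEATS2. The SSX1 groups overlapped and it was not called. SSX2IP, the gene set apart above, was at 38.9 and 40.3 CPM in shControl and 47.6 and 49.0 CPM in shYEATS2, with a log2 fold change of 0.29 (SE 0.08).

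The makeup of the families' RNA differed between the groups. The members summed to 389 and 375 CPM in shControl and 362 and 341 CPM in shYEATS2. MAGEC2 made up 1.98% (1.78 to 2.19%) and 1.90% (1.69 to 2.14%) of all counts on members in shControl, and 17.5% (16.8 to 18.3%) and 17.3% (16.1 to 18.5%) in shYEATS2, with 95% Wilson intervals that cover counting error only. MAGEA3, MAGEA6 and PRAME together made up 92.3% and 92.6% in shControl and 78.6% and 78.4% in shYEATS2. MAGEA12 made up 2.89% and 3.03% in shControl and 0.676% and 0.772% in shYEATS2, and MAGEC1 0.826% and 0.636% against 0.0981% and 0.0747%. The plot of shares shows the libraries of a group to be alike in each of these.

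**Figure D5:**
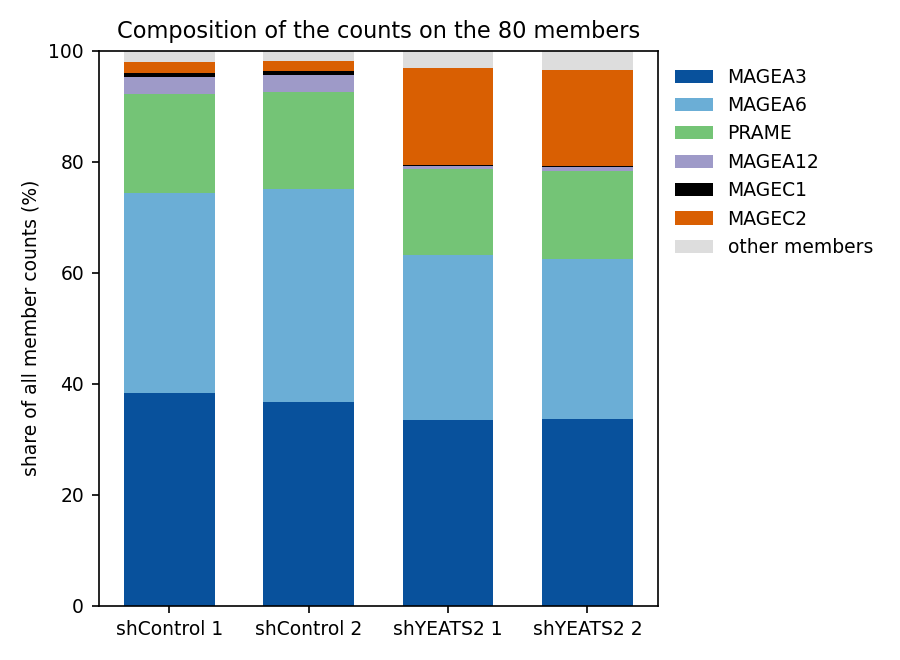
Share of all counts on the 80 members (percent, stacked to 100) held by the leading members in each of the 4 libraries. MAGEC2 takes 1.98% and 1.90% with the control hairpin and 17.5% and 17.3% with the YEATS2 hairpin.

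The upstream sequences of the members were compared with those of other genes. A RefSeq promoter was matched for 66 of the 80 members and for 14 of the 16 tested, without MAGEA1 and CTAG2. The matches of MAGEC3 and GAGE12B, neither of them tested, lay 56350 and 188705 bases from the start of the GENCODE canonical transcript. They may not be the promoters of these genes but are counted below. Over the 250 bases before the start, members held a median of 8 CpG sites (quartiles 7 to 11), against 11 (quartiles 3 to 23) in all 27305 promoters of the table, so the members fell in a narrow middle range. Among those tested, MAGEA11 held 18 CpG sites. The GC box letters GGGCGG, on either strand, were in 22.7% of the members' sequences and 42.3% of all promoters, and MAGEC2 and MAGEC1 both hold them, in 1 and 2 copies. The ETS core CCGGAA was in 13.6% of members and 14.8% of all, and those of MAGEA3, MAGEA6, PRAME and MAGEB6 hold it. The E-box CACGTG was in 12.1% of members and 6.49% of all. The E2F-like TCCCGC was in 37.9% and 23.5%, with 1 copy before XAGE2, and the ATF4-like TGATGNAA in 1.52% and 3.19%. In the 14 tested members matched, the shares were 35.7% for GGGCGG, 28.6% for CCGGAA, 7.14% for CACGTG, 14.3% for TCCCGC and 0% for TGATGNAA. All matched GAGE members, a family of close copies, hold TCCCGC, and each was counted here and in the CpG quartiles. The motif shares are matches of letters in a fixed window and were not tested against the changes in expression.

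Most members share chromosome X, whose genes are given here as a whole for reference, without a test against the autosomes. Of the 571 tested genes on X, 18.2% were called higher and 27.2% lower, with a median log2 fold change of −0.08, and without the members these shares were 17.8% and 26.9%. Of 16394 tested autosomal genes, 22.8% were higher and 23.5% lower, with a median of −0.01.

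The type II MAGE genes, which share the MAGE homology domain but are expressed in many tissues, had 6 of 11 genes tested. Of these 3 were higher, 2 lower and 1 not called, where 22.6% of all tested genes were higher and 23.6% lower. Library totals alone gave 3 higher and 0 lower. The list's median log2 fold change was 0.07, against −0.01 over all tested genes. MAGED1 had the largest change of the list, 2.87 (SE 0.56) on the log2 scale, but reached the test only through the shYEATS2 libraries. It had 7 and 4 counts in shControl and 26 and 11 in shYEATS2, or 0.154 and 0.106 CPM against 1.03 and 0.933 CPM. Its mean was under the 1 CPM asked of named genes. MAGEH1 rose from 4.70 and 5.27 CPM to 9.47 and 10.5 CPM, with a log2 fold change of 0.99 (SE 0.15), and MAGEF1 rose by a log2 fold change of 0.32 (SE 0.09). MAGEE1 had a log2 fold change of −0.88 (SE 0.31), with 1.66 and 0.509 CPM in the shYEATS2 libraries, and NSMCE3 had one of −0.30 (SE 0.09). MAGED2, the most abundant of them, was at 99.7 and 94.7 CPM in shControl and 94.5 and 76.8 CPM in shYEATS2 and was not called.

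The ubiquitin ligases and substrates that MAGE proteins are known to work with had 15 of 16 genes tested. Of these 4 were lower and 11 not called, where 23.6% of all tested genes were lower and 22.6% higher. Their median log2 fold change was −0.03. At full depth with TMM scaling, edgeR called none higher, also at an unadjusted p under 0.05, and DESeq2 called none higher. Library totals alone gave 5 higher and 4 lower, and thinning gave 1 higher. The lower genes were CUL4A at −0.60 (SE 0.07) and RBX1 at −0.43 (SE 0.08), a scaffold and the RING subunit of cullin ligases, PJA1 at −0.42 (SE 0.11), and TRIM28. TRIM28, the partner of MAGEC2, MAGEA3 and MAGEA6, was at 243 and 250 CPM in shControl and 202 and 171 CPM in shYEATS2, with a log2 fold change of −0.40 (SE 0.06). PRKAA1, which encodes the AMPK subunit, was at 179 and 186 CPM against 164 and 195 CPM, with overlapping groups and no call.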

How the data were processed

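RNA was extracted with TRIzol from shControl and shYEATS2 BICR10 cells, and stranded mRNA libraries were read as pairs of 150 bp. The authors aligned reads to GRCh38 with STAR and counted pairs per gene with HTSeq. The deposited values are raw counts. The STAR version, annotation release and strand setting are not given in the sources used here. Pairs without a unique feature, 3.25 to 3.53% for several places, 4.31 to 4.61% for ambiguous genes and 7.64 to 8.57% for no gene, were left out. Of 60623 genes, 60295 were placed by GENCODE release 44.

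Genes were kept by filterByExpr, TMM-scaled, and compared by the quasi-likelihood test of edgeR 4.0.16 (robust fit) under R 4.3.3, with Benjamini-Hochberg adjustment over 17058 genes. The pipeline was tested on simulated data. The alternatives were other scalings and filters, a 2-fold minimum, DESeq2 1.42.0, thinning, a replicate block and leaving out each library. Members and lists were chosen with earlier results of these data known. Every tested member was named, with up to 3 called genes of each list (5 of the other testis genes) at 1 CPM or more by absolute change. Some list genes outside this rule, MAGED1 among them, were named too. SE is the absolute log2 fold change over the square root of F from edgeR's test, which borrows information on variance across genes. SD rests on 2 libraries a group, where an exact two-sided permutation test cannot go below p = 0.333. Upstream sequences came from RefSeq (GRCh38.p14), and transcripts, from GENCODE, were aligned with Biopython 1.88 in place of proteins. No column belonged to an unmapped sample.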

Additional observations from a re-analysis of the deposited data

How the results depend on the processing

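Over 178 values of single members under the alternatives, 169 stayed on their side of the threshold, 7 lost their call, 2 gained one and 0 reversed a called direction. A member that failed the filter under an alternative has no value there and is not in this count. CTAG2 gave 9 values to the count and MAGEC2 gave 12. MAGEA9, SSX1 and SYCP1, which were not called, changed sign under some alternatives. The 5 higher members became 2 when at least 10 counts in every library were asked for and 3 to 5 when a library was left out, with 3 reached without shYEATS2 1. The 6 lower members became 3 with a 2-fold minimum and 5 to 6 when a library was left out. Of the members, 46 were tested with no filter, 8 at 10 counts in every library and 16 to 18 when a library was left out, and 11 after thinning. Calls among type II MAGE genes fell from 5 to 3 with library totals, with 10 counts in every library and with DESeq2, to 1 with a 2-fold minimum, and ranged from 3 without shYEATS2 2 to 6 when a library was left out. Calls among ligase partners rose from 4 to 9 with library totals, all 5 added ones being higher, and were 0 with a 2-fold minimum, which also left 1 of 12 among DNA methylation genes and 0 of 13 among germline repressors. Over all genes 7876 were called by edgeR and 5213 by DESeq2. Under library totals the median over all tested genes went from −0.01 to 0.13 (log2), and beyond that the cause of these changes was not tested. With a replicate block the higher and lower members stayed at 5 and 6, with 6 calls among type II MAGE genes. The labels do not say whether the replicate numbers pair the libraries. The correlation between replicate differences of the groups was −0.019, but counting error at unequal depth can hide a pairing, so it does not settle this. With 2 libraries in a group, leaving 1 out assumes that the lone library varies like the other group. Depth limits the members under 1 CPM most.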

Other observations

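Genes of the machinery that writes, reads and removes DNA methylation, the mark that helps to silence cancer-testis genes, were also listed. Of 19 genes 18 were tested and 12 of these called, where 46.2% of all tested genes were called. Their median log2 fold change was −0.16. In shYEATS2 5 were higher, 7 lower and 6 not called, where 22.6% of all tested genes were higher and 23.6% lower. Library totals alone turned this into 7 higher and 5 lower. DNMT3B, a de novo methyltransferase, was at 8.66 and 7.83 CPM in shControl and 22.5 and 21.0 CPM in shYEATS2, a log2 fold change of 1.40 (SE 0.11). DNMT1, which maintains methylation after replication, fell by 0.27 (SE 0.06) on the log2 scale, and DNMT3A was not called. TET1, which oxidizes methylcytosine, was at 8.20 and 8.18 CPM against 4.54 and 5.01 CPM, a log2 fold change of −0.80 (SE 0.15). ZBTB38, which binds methylated DNA, had a log2 fold change of 0.81 (SE 0.06). Methylation itself was not measured in these libraries.

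All 27 genes listed as repressors of germline genes were tested, with 9 higher, 4 lower and 14 not called and a median log2 fold change of −0.0032, so 13 of 27 were called where 46.2% of all tested genes were. Library totals alone gave 11 higher and 3 lower. Their largest changes were in MPHOSPH8, a subunit of the HUSH complex, at −0.63 (SE 0.08), and in E2F6 and RYBP, subunits of a Polycomb-related complex, at 0.55 (SE 0.10) and 0.50 (SE 0.09). Of 92 other testis-biased and meiotic genes 26 were tested, with 7 higher, 3 lower and 16 not called, where 46.2% of all tested genes were called. Their median log2 fold change was 0.07, and library totals alone gave 9 higher and 2 lower. FAM133A, on chromosome X, was at 2.23 and 1.75 CPM in shControl and 16.9 and 18.3 CPM in shYEATS2, a log2 fold change of 3.13 (SE 0.15) of about the size found for MAGEC2. IL13RA2, a decoy receptor for IL-13 also on X, was at 1.24 and 1.35 CPM against 8.05 and 10.7 CPM, a log2 fold change of 2.83 (SE 0.20). HORMAD1, of the meiotic chromosome axis, and TDRKH, of the piRNA pathway, had log2 fold changes of 1.77 (SE 0.41) and 1.18 (SE 0.15). Markers of leukocytes summed to 1.69 to 1.85 CPM in shControl and 0.553 to 1.44 CPM in shYEATS2, with CD68 and CD3E at 0. Those of melanocytes summed to 0.873 to 0.948 CPM and 1.58 to 2.21 CPM, and the difference was nearly all in DCT, at 0.104 and 1.06 CPM on average, while PMEL stood at 0.600 and 0.610 CPM and TYR and MLANA at 0.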
